A study of Mus musculus with 9 samples.

Results

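The proteasome is the protease that degrades ubiquitin-tagged proteins, and its constitutive subunits and activators were followed here in Lewis lung carcinoma cells grown at 3 sites. The genes were chosen by symbol: every measured gene whose name starts with Psma, Psmb, Psmc, Psmd or Psme and a number, without the immunoproteasome subunits Psmb8, Psmb9 and Psmb10. This gave 42 of 19505 genes, each with a single feature on the array. They are 13 core ring subunits, 17 subunits of the regulatory particle, 3 chaperones of its assembly (Psmd5, Psmd9 and Psmd10), 4 activators (Psme1 to Psme4), 2 core subunits of thymus or testis (Psmb11 and Psma8) and 3 genes that carry such a name without being constitutive subunits (Psmc3ip, Psme2b and Psme3ip1). Psmb5, a catalytic subunit, was not analysed here. Apart from Psmb11 and Psma8, which stayed under the background guide on all 9 arrays, 40 of the 42 genes were above it on every array.

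The RNA was that of 3LL cells carrying GFP, a mouse Lewis lung carcinoma line with C57/BL6 as the strain in the labels. In the dish group (n = 3) the cells had been kept in monolayer culture for 7 days. In the subcutaneous group (n = 3) and the lung group (n = 3) they had been placed under the skin or in the lung tissue of a host, and the GFP-positive cells were isolated 7 days afterwards. Whether the samples of a group stem from different hosts or dishes is not stated, so each p-value reflects only how far these samples spread, which may be technical spread. How GFP was introduced is not described in the sources used here.

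The core of the proteasome is a barrel of alpha and beta rings in which a few beta subunits hold the active sites. The regulatory particle caps the barrel: its base contains a ring of ATPases that unfold the substrate, and its lid removes ubiquitin. Activators of the Psme family are alternative caps, and interferon-gamma raises Psme1 and Psme2 as well as the immunoproteasome subunits. The immunoproteasome subunits can take the place of the constitutive catalytic subunits. Subunits of the particle are made in parallel in many settings, in part through the transcription factor encoded by Nfe2l1.

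Values are log2 signals, on which a difference of 1 is a doubling, and they compare arrays for the same gene, never different genes. Differences come from limma with Benjamini-Hochberg adjustment over 19505 genes, and "rose" and "fell" are used of genes with an adjusted p under 0.05. Counts and shares of genes given as higher or lower use the same threshold, unless an unadjusted p is named. The arrays differed in ways that touch these comparisons. The upper quartile over genes was 8.55 to 8.68 on the lung arrays and 8.20 to 8.49 on the others. The RNA integrity number (RIN) was 8.60, 7.50 and 7.80 on subcutaneous replicates 1, 2 and 3, and 7.90 to 8.60 on the other arrays. The mean log2 signal of the hybridization controls separated the groups: 10.95 to 11.58 on the lung arrays, 11.86 to 12.16 on the dish arrays and 12.73 to 12.96 on the subcutaneous arrays. Over all genes 1797 rose and 1130 fell from the subcutaneous to the lung samples. Once arrays were scaled to the median of expressed genes, 1175 rose and 2391 fell. That scaling moved the median of all genes from -0.07 to -0.33. For lung against dish the same scaling turned 938 higher and 384 lower into 568 higher and 1284 lower, and moved that median from -0.07 to -0.37. Markers of other cell types also moved with the groups. Of 8 alveolar type II genes, 5 rose from the subcutaneous to the lung samples, and the log2 of their summed signal was 13.55 to 16.45 on the lung arrays against 8.67 to 9.28 on the subcutaneous arrays and 8.02 to 8.54 on the dish arrays. Of 5 fibroblast genes, 3 rose from the dish to the subcutaneous samples, and the difference was positive for all 5. Their log2 summed signal was 16.47 to 17.25 on the subcutaneous arrays. It was 10.76 to 13.97 on the lung arrays and 8.24 to 8.52 on the dish arrays. Of 4 airway secretory genes 1 rose from the subcutaneous to the lung samples, and the difference was positive for all 4. On the lung arrays 0 to 3 of them were above background. The log2 of the summed signal of the 4 genes was 7.39, 10.05 and 14.54 on lung replicates 1, 2 and 3. No B cell (2), T and NK cell (5) or endothelial (5) marker was above background on any array. Of 7 macrophage markers 1 or 2 were, and of 5 epithelial markers 1 or 2, among them Krt8 on every array. The part of these markers, of RIN and of the control signal in the results was not tested. In such bulk samples, fewer cells of a type and less RNA per cell cannot be told apart.

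Under the skin, 10 of the 30 core and regulatory particle subunits fell against the dish, 1 rose and 19 were not called. The fallers make up 33.3%, where 6.47% of all genes and 14.9% of the genes above background on at least 3 arrays were lower, and 6.41% and 14.5% were higher. Of the whole set of 42 genes 13 were called in either direction, where 12.9% of all genes and 29.4% of the genes above background were. The median difference of the 30 subunits was -0.43, against -0.01 over all genes and -0.05 over the genes above background. It was -0.43 after quantile normalization, -0.46 after scaling to the median of expressed genes and -0.30 with RIN as a covariate. Over the 3 groups, 24 of the 30 subunits had their lowest mean in the subcutaneous samples, as did 43.7% of the genes above background. By role, 0 of 7 alpha subunits (2 at an unadjusted p under 0.05 in limma), 1 of 2 catalytic beta subunits, 2 of 4 other beta subunits, 2 of 6 ATPases, 1 of 3 other base subunits and 4 of 8 lid subunits fell. With RIN as a covariate 5 of the 10 kept their calls (Psmb3, Psmb6, Psmd2, Psmd3 and Psmd13). Over all genes the same setting took the number that fell from 1262 to 606. On subcutaneous replicate 1, the array with the highest RIN of its group, 22 of the 30 subunits were highest of the 3 arrays. So were 6520 of all 19505 genes and 2577 of the 6667 genes above background.

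**Figure D1:**
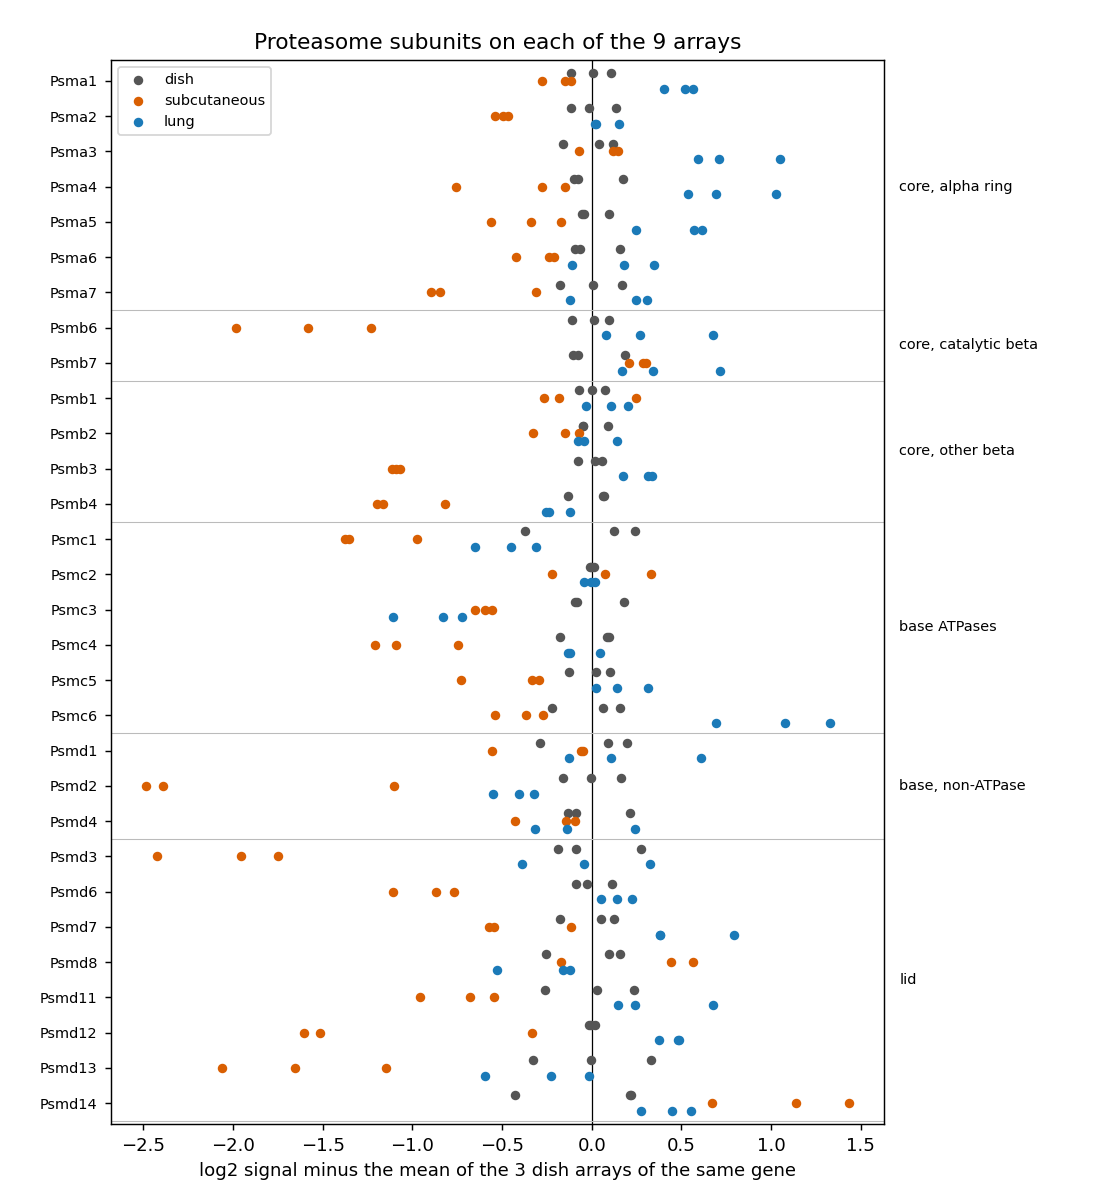
Log2 signal of each of the 30 core and regulatory particle subunits on each array, minus the mean of that gene on the 3 dish arrays (horizontal axis, log2). Each point is an array, dish in grey, subcutaneous in orange and lung in blue, and genes are grouped by place in the particle. The orange points of Psmd3, Psmd2, Psmb6 and Psmd13 lie left of all grey and blue points, while those of Psmd14 lie to their right.

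Psmd3, a scaffold subunit of the lid, and Psmd2, the large base subunit that binds ubiquitin shuttles, had the lowest differences, which lay within their errors of each other. Psmd3 read 13.64, 13.54 and 14.01 on the dish arrays and 11.98, 11.77 and 11.30 on the subcutaneous arrays. The groups did not overlap, and the difference was -2.04 with a standard error (SE) of 0.27 (limma, adjusted p = 0.00034), a 4.12-fold lower signal. Psmd2 read 14.59, 14.42 and 14.27 in the dish and 13.32, 12.03 and 11.94 under the skin. Here subcutaneous replicate 1 stood above replicates 2 and 3, yet below every dish array. The difference was -1.99 (SE 0.33, adjusted p = 0.00135), or -2.44 without that array. Psmd13, another lid scaffold, read 11.56, 11.89 and 11.23 in the dish and 10.41, 9.50 and 9.90 under the skin, a difference of -1.62 (SE 0.29, adjusted p = 0.00235). Psmb6, the catalytic subunit with caspase-like activity, read 13.76, 13.63 and 13.84 in the dish and 12.52, 12.16 and 11.76 under the skin. All 3 subcutaneous arrays were below all 3 dish arrays, and the difference was -1.60 (SE 0.26, adjusted p = 0.00128). For Psmd3, Psmd2, Psmd13 and Psmb6 the call was kept in all 18 alternative settings.

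Psmb7, the other catalytic subunit measured and the one with trypsin-like activity, read 14.60, 14.30 and 14.33 in the dish and 14.69, 14.71 and 14.62 under the skin, a difference of 0.27 that was not called (95% interval -0.24 to 0.77, adjusted p = 0.531). Among the beta subunits without an active site, Psmb3 was at 15.45 ± 0.07 (SD, n = 3) in the dish and 14.36 ± 0.02 under the skin and fell by 1.09 on the log2 scale. Psmb4 went from 15.55 ± 0.11 to 14.49 ± 0.21 and fell by 1.06. Psmb1 and Psmb2 differed by -0.07 and -0.18 and were not called, with 95% intervals of -0.56 to 0.43 and -0.65 to 0.28. The alpha subunits form the outer rings that gate the barrel. Psma2 and Psma7 had the lowest differences among them, -0.50 and -0.68, and were not called either (adjusted p = 0.156 and 0.0965). For Psma3 the difference was 0.06 (95% interval -0.43 to 0.56).

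In the base, the ATPases Psmc1 and Psmc4 fell. Psmc1 read 13.94, 13.32 and 13.82 in the dish and 12.72, 12.34 and 12.32 under the skin, a difference of -1.23 (adjusted p = 0.00521), and Psmc4 differed by -1.02 (adjusted p = 0.0102). Psmc2, another ATPase of the same ring, read 11.85, 11.83 and 11.84 in the dish and 12.17, 11.62 and 11.91 under the skin, so that the dish values lay within the range of the subcutaneous ones. The ubiquitin receptor Psmd4 and the large base subunit Psmd1 were not called (-0.22 for both, adjusted p = 0.626 and 0.675). In the lid, Psmd12 was at 12.38, 12.38 and 12.41 in the dish and 12.05, 10.87 and 10.79 under the skin and fell by 1.15 on the log2 scale, and Psmd6 fell by 0.91 on the same scale. Psmd14, the lid enzyme that cuts ubiquitin from the substrate, was the riser. It read 8.46, 8.45 and 7.82 in the dish and 9.68, 9.38 and 8.92 under the skin and rose by 1.08 (SE 0.27, adjusted p = 0.0186). Its value on dish replicate 3, 7.82, lay close above the background guide of that array, 7.59. With RIN as a covariate the difference of Psmd12 was -0.61 (adjusted p = 0.279) and that of Psmd6 -0.78 (adjusted p = 0.118), neither of them called. Calls that rested on single arrays were those of Psmd12, lost without any dish array or without subcutaneous replicate 2 or 3 (7 of the 18 settings in all, adjusted p = 0.0501 to 0.279), of Psmd14, lost without dish replicate 3 or subcutaneous replicate 1 or 2 (differences of 0.87, 0.90 and 1.05, adjusted p = 0.0829, 0.0691 and 0.056), and of Psmd6, lost without dish replicate 3 or subcutaneous replicate 2 (adjusted p = 0.0522 to 0.118 over 3 settings). Psmb4, Psmc1 and Psmc4 lost theirs in that 1 setting, RIN as a covariate (adjusted p = 0.0767, 0.0583 and 0.104).

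In the lung, 15 of the 30 subunits rose against the skin and 0 fell by limma (1 was lower at an unadjusted p under 0.05, Psmd14). Over all genes 9.21% were higher and 5.79% lower, and over the genes above background 21.3% and 10.2%. Of all 42 genes 16 were called, where 15% of all genes and 31.5% of the genes above background were called in either direction. The median difference was 0.79, against -0.07 over all genes and 0.23 over the genes above background, and it was 0.83 after quantile normalization and 0.53 after scaling to the median of expressed genes. The risers were 3 of 7 alpha subunits, 1 of 2 catalytic and 2 of 4 other beta subunits, 2 of 6 ATPases, 1 of 3 other base subunits and 6 of 8 lid subunits. This comparison and the one against the dish share the subcutaneous arrays, so their differences for a gene are not independent. The same scaling left 10 of all 42 genes higher in place of 16, and 2 lower, Psmd14 (-0.92, adjusted p = 0.0315) and Psme3ip1 (-0.76, adjusted p = 0.0421). After quantile normalization Psmd14 was lower as well (-0.95, adjusted p = 0.0272). With RIN as a covariate the median difference of the 30 subunits was 0.71, and 14 of them rose.

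**Figure D2:**
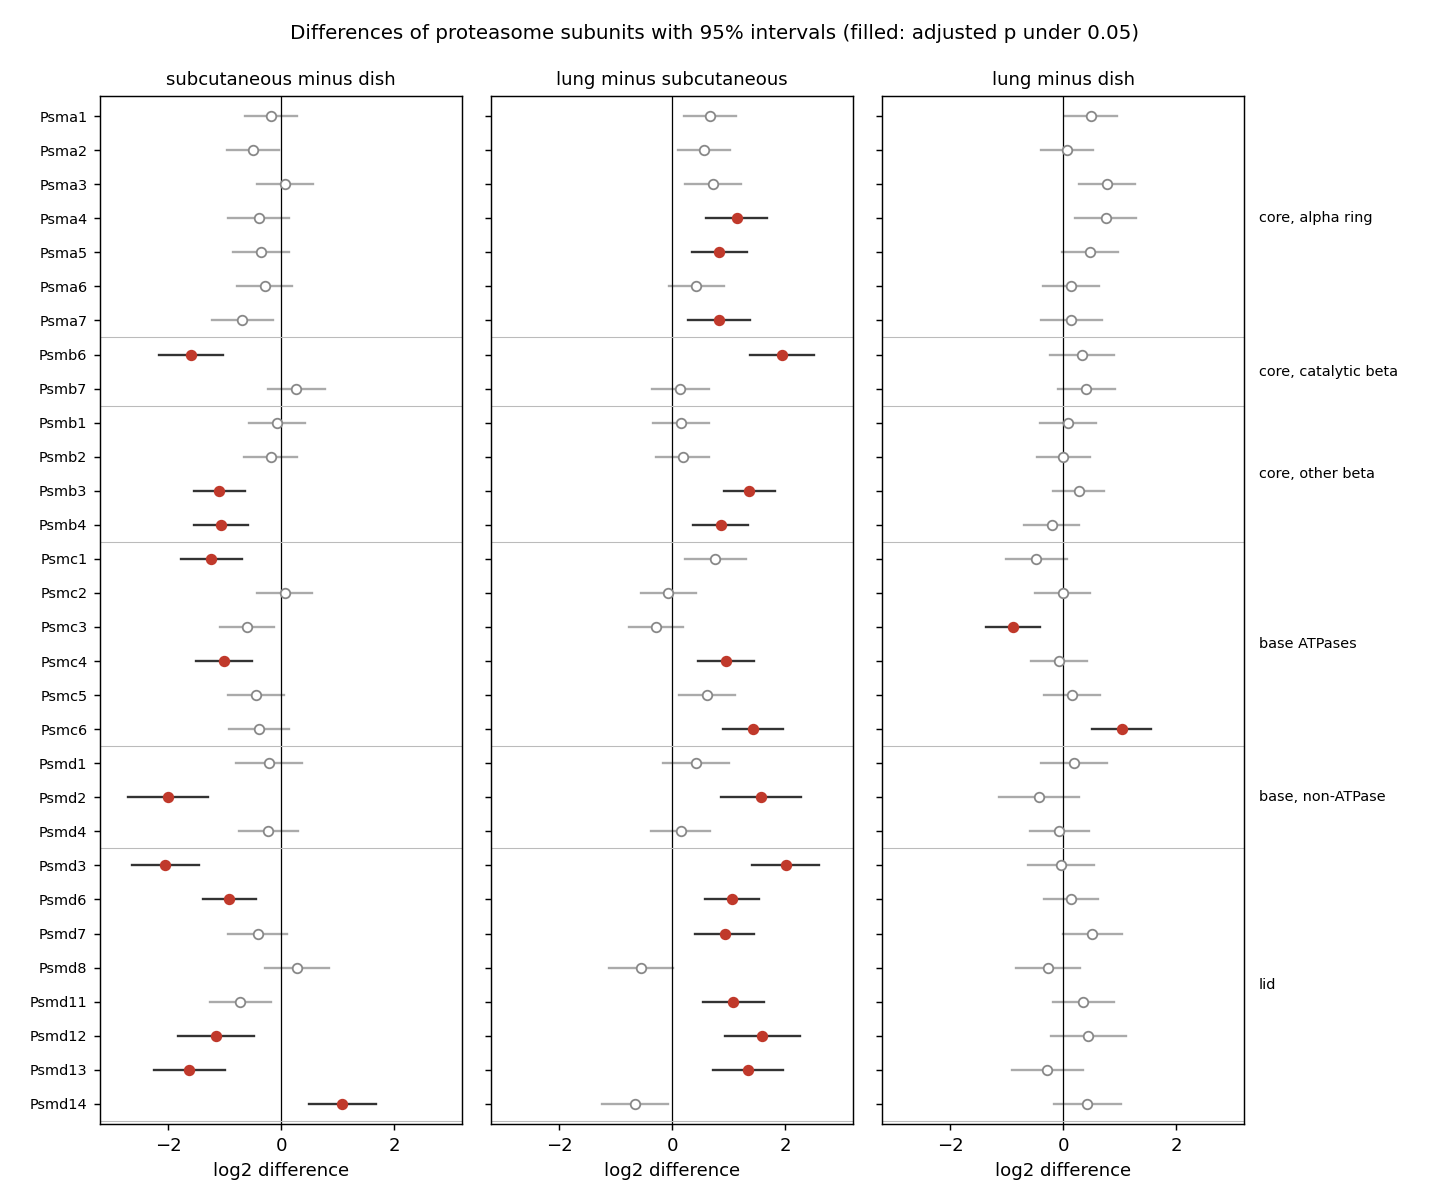
Log2 differences of the 30 subunits (points) with 95% intervals from limma (lines) for subcutaneous minus dish, lung minus subcutaneous and lung minus dish. Filled points have an adjusted p under 0.05. In the first panel 10 filled points lie left of 0 and 1 to its right, in the second 15 lie right of 0, and in the third Psmc3 and Psmc6 alone are filled.

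Psmd3 read 14.05, 13.69 and 13.34 on the lung arrays, a difference of 2.01 from the subcutaneous arrays (SE 0.27, adjusted p = 0.000582) and of -0.04 from the dish arrays (95% interval -0.62 to 0.55). Psmb6 read 14.01, 13.82 and 14.42, which is 1.94 above the subcutaneous mean (SE 0.26, adjusted p = 0.000564) and 0.34 above the dish mean (95% interval -0.22 to 0.91). All 3 lung arrays stood above all 3 subcutaneous arrays for both genes. Psmd12, at 12.88, 12.76 and 12.87 in the lung, rose by 1.60 (SE 0.31, adjusted p = 0.00428), and Psmd2, at 14.11, 14.02 and 13.88, rose by 1.57 (SE 0.33, adjusted p = 0.00685). The lid scaffolds Psmd13, Psmd11 and Psmd6 rose by 1.34, 1.08 and 1.05. Psmb3 rose by 1.37, with lung values of 15.62, 15.77 and 15.79.

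Several subunits without a call between skin and dish rose from skin to lung. The ATPase Psmc6 read 13.57, 13.18 and 13.81 in the lung against 12.21, 12.12 and 11.95 under the skin and rose by 1.43 (SE 0.24, adjusted p = 0.00223). The alpha subunit Psma4 read 11.96, 11.80 and 12.29 in the lung against 10.99, 10.51 and 11.12 under the skin and rose by 1.15 (SE 0.25, adjusted p = 0.00839). Psma5 and Psma7 rose by 0.83 each, and Psmd7, the lid partner of Psmd14, by 0.93. Psma1, Psma3 and Psmc1 were close to the threshold without passing it, at 0.67, 0.72 and 0.76 (adjusted p = 0.0502, 0.0512 and 0.0569). The base chaperone Psmd5 read 12.09, 11.95 and 12.81 in the lung against 11.38, 11.31 and 10.97 under the skin and rose by 1.07 (adjusted p = 0.0204). The chaperones Psmd9 and Psmd10 were not called (0.20 and -0.05, adjusted p = 0.622 and 0.934). Psmd8, a lid subunit, and Psmd14 lay on the other side of 0 (-0.55 and -0.65, adjusted p = 0.186 and 0.129).

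The rises of Psma5, Psma7, Psmb4 (0.86), Psmc4 (0.95), Psmd5 and Psmd7 were the ones lost without subcutaneous replicate 3, which left 10 of 42 genes higher, and they were also lost after scaling to the median of expressed genes. Over all settings in which they failed, the adjusted p was 0.0508 to 0.128 for Psma5 (also without subcutaneous replicate 2 or lung replicate 1 or 3), 0.0503 to 0.142 for Psma7 (without any subcutaneous array but replicate 1, any lung array, or dish replicate 2 or 3), 0.0564 to 0.104 for Psmb4 (also without subcutaneous replicate 2 or lung replicate 1 or 2), 0.0503 to 0.0789 for Psmc4 (also without lung replicate 1), 0.0643 to 0.0714 for Psmd5 (also without lung replicate 3) and 0.0624 to 0.105 for Psmd7 (also without subcutaneous replicate 2 or lung replicate 1). Psma5 and Psma7 failed as well in a fit of the 2 groups compared (adjusted p = 0.0508 and 0.0694), and Psma7 with RIN as a covariate (adjusted p = 0.0664).

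Between lung and dish 1 of the 30 subunits rose and 1 fell, where 4.81% of all genes were higher and 1.97% lower (11.4% and 3.49% of the genes above background). Of all 42 genes 5 were called, where 6.78% of all genes and 14.9% of the genes above background were called in either direction. That count of 5 was 3 without dish replicate 1, dish replicate 2 or lung replicate 2, and 2 without dish replicate 3 or lung replicate 1. The median difference of the 30 subunits was 0.14, and -0.15 after scaling to the median of expressed genes, so it has no settled direction. The same scaling moved the median of the genes above background from 0.17 to -0.12. It moved the median of all genes from -0.07 to -0.37. Psmc6 rose by 1.03 (SE 0.24, adjusted p = 0.0232), with every lung array above every dish array (12.65, 12.26 and 12.55). Psmc3, another ATPase of the base, read 14.01, 14.00 and 14.27 in the dish and 12.99, 13.37 and 13.26 in the lung and fell by 0.89 (SE 0.22, adjusted p = 0.0319). Under the skin it read 13.50, 13.44 and 13.54, a difference of -0.60 from the dish that was not called (adjusted p = 0.103). The call of Psmc6 was lost without dish replicate 2 or 3 or lung replicate 1 or 3 (adjusted p = 0.0628 to 0.108 over 5 settings, scaling among them). That of Psmc3 was lost without any dish array or without lung replicate 1 or 2 (adjusted p = 0.0562 to 0.145 over 6 settings, RIN among them). Among the subunits without a call, Psma3 and Psma4 came closest to the threshold in limma (0.78 and 0.75, adjusted p = 0.0585 and 0.0932). Across the 3 comparisons 12 of the 30 subunits were never called: Psma1, Psma2, Psma3, Psma6, Psmb1, Psmb2, Psmb7, Psmc2, Psmc5, Psmd1, Psmd4 and Psmd8. The share of all genes that were never called was not counted, so this number has no background beside it.

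The start regions of 3 of the genes that fell most are printed to show what a subunit promoter holds: Psmb6, Psmd2 and Psmd13. They are RefSeq sequences of build GRCm38.p6, from 250 bases before to 30 bases after the annotated start, on the plus strand: chr11:70525107-70525386 for Psmb6, chr16:20651402-20651681 for Psmd2 and chr7:140882144-140882423 for Psmd13. Capitals mark matches to the motifs described in the next paragraph.
Psmb6: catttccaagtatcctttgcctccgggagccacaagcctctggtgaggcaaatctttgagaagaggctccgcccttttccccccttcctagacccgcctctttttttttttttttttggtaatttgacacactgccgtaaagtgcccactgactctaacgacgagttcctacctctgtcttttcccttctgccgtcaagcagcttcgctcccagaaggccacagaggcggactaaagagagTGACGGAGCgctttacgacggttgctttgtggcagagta
Psmd2: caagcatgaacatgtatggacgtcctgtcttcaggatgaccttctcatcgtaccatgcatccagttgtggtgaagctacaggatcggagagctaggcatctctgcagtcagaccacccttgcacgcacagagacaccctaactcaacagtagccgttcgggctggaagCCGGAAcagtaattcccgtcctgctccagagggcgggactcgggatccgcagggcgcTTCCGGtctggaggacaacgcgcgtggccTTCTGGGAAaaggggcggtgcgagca
Psmd13: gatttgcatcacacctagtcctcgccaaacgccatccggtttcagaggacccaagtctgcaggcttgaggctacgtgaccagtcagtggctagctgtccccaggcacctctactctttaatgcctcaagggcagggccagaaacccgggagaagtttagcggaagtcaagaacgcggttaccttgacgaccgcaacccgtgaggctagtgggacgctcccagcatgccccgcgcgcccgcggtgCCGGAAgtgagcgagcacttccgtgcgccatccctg

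Of the 42 genes 35 had such a window that was used, with 39 windows in all, and 5 motifs were searched on both strands over 250 bases before to 50 after the start. Windows on the chromosome of Psma8 were left out for these genes but kept among the windows of all genes. The windows of a gene with several starts can overlap. The ETS core CCGGAA was in 20 of the 39 windows (51.3%), where 14.9% of 32841 windows of all genes held it, and in 15 of 26 windows (57.7%) of the core and regulatory particle subunits. Psmd2 holds it with its first base 82 and 25 bases before the start, and Psmd13 with its first base 6 bases before it. Among the subunits that fell under the skin 6 of 9 windows held it, and among the other subunits 9 of 17. Windows of the genes followed here were richer in G and C (median 59.0%) than those of all genes (52.7%). The antioxidant response element core TGACNNNGC, to which the product of Nfe2l1 binds, was in 5 of 39 windows (12.8%, against 12.4% of all windows), those of Psmb6, Psmc6, Psmd12, Psmd9 and Psme4. In Psmb6 it begins 9 bases before the start. The CCAAT box was in 15 of 39 windows (38.5%, against 37.4%). The interferon-stimulated response element core (GAAA, NN, GAAA) was in 4 (10.3%, against 3.44%), those of Psmb3, Psmd4, Psmd9 and Psme1. The gamma-interferon activation site TTCNNNGAA was in 1 (2.56%, against 8.30%), that of Psmd2. A match describes letters in the window and is not a measured site.

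Of the 4 activators 2 rose and 0 fell by limma in each transplanted group against the dish (0 lower at an unadjusted p under 0.05). Under the skin 6.41% of all genes and 14.5% of the genes above background were higher, and in the lung 4.81% and 11.4%. Between lung and skin 0 of the 4 were called (2 higher at an unadjusted p under 0.05, Psme2 and Psme4). Psme1 encodes the alpha chain of the interferon-inducible cap. It read 12.21, 11.82 and 11.56 in the dish, 13.68, 13.62 and 13.75 under the skin and 13.29, 13.59 and 13.77 in the lung. Every array of both transplanted groups lay above every dish array. Psme1 rose by 1.82 under the skin (SE 0.25, adjusted p = 0.000362) and by 1.69 in the lung (SE 0.25, adjusted p = 0.00178), while lung and skin differed by -0.13 (95% interval -0.66 to 0.40). Both calls were kept in all 18 settings. Psme2, the beta chain of the same cap, read 12.54, 12.53 and 12.39 in the dish, 13.50, 13.20 and 13.24 under the skin and 13.53, 13.74 and 14.34 in the lung. It rose by 1.38 in the lung (adjusted p = 0.00674). Under the skin it rose by 0.83 (adjusted p = 0.049), a call at the threshold that was lost in 13 of the 18 settings, any array but lung replicate 3 left out among them (adjusted p = 0.0525 to 0.133).

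Psme3, the nuclear activator, was not called in any comparison: it was at 14.44 ± 0.26 (SD, n = 3) in the dish, 14.25 ± 0.13 under the skin and 14.58 ± 0.07 in the lung. Psme4, a single-chain cap, read 8.57, 8.80 and 8.06 in the dish, 8.96, 9.12 and 8.22 under the skin and 10.02, 9.55 and 9.02 in the lung. Its lung values all lay above its dish values, but the difference of 1.05 was not called (SE 0.33, adjusted p = 0.073). Psme2b is a near-identical copy of Psme2, so their separate values are uncertain. It rose in the lung against the dish (1.06, adjusted p = 0.0443), a call lost in 13 of the 18 settings, any array but dish replicate 2 left out among them (adjusted p = 0.0514 to 0.154). Psmc3ip, a recombination factor named for binding Psmc3, and Psme3ip1, a partner of Psme3, were not called (largest differences -0.66 and -0.50, adjusted p = 0.119 and 0.178).

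The start region of Psme1 is printed because this gene rose in both transplanted groups and its window holds the interferon-stimulated response element core, in capitals on the opposite strand, with its first base 9 bases after the annotated start. It lies at chr14:55578244-55578523 (GRCm38.p6, plus strand, RefSeq), from 250 bases before to 30 after the start. The element core was also in windows of Psmb3, which fell under the skin against the dish (-1.09), and of Psmd4 and Psmd9, which were not called in any comparison. No window of Psme2, which rose as well, held it. Whether the match bears on the rise of Psme1 was not tested.
Psme1: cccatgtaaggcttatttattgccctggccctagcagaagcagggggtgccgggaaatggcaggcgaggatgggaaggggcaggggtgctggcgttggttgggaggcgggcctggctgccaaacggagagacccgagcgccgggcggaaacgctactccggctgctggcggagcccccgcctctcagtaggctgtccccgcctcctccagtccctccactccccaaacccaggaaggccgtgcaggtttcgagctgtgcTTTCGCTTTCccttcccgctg

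**Figure D3:**
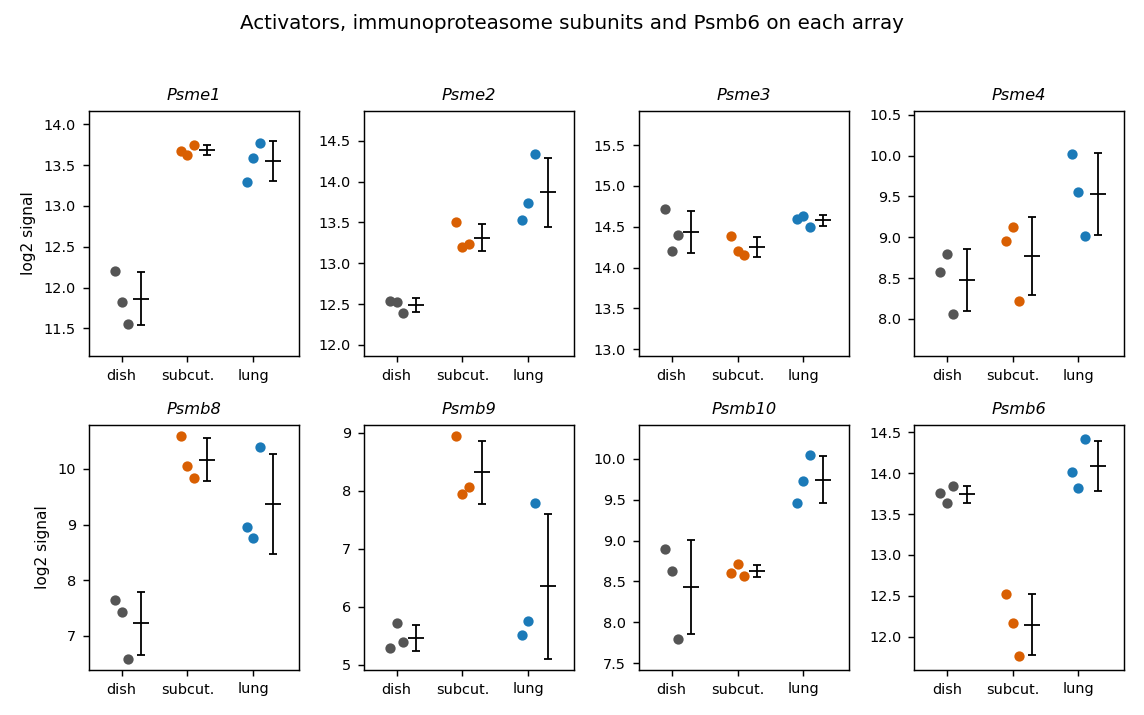
Log2 signal of the 4 activators, the 3 immunoproteasome subunits and Psmb6 on each array (points) in the dish, subcutaneous and lung groups. Bars beside the points give the mean ± SD of the 3 arrays, and each panel has its own vertical axis, which does not start at 0. Psme1 is above its dish values in both transplanted groups, and Psmb6 is lowest under the skin, where Psmb9 is highest.

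The immunoproteasome subunits, which replace catalytic subunits of the constitutive core, were set beside these values. Psmb9, which takes the place of Psmb6, read 5.28, 5.72 and 5.39 in the dish, 8.94, 7.95 and 8.06 under the skin and 5.51, 5.76 and 7.79 in the lung. In the dish all 3 arrays were under the background guide, so its rise under the skin of 2.85 (adjusted p = 0.00172) is read as at least 0.89. On the lung arrays it was above the guide on replicate 3 alone, and the fitted difference between lung and skin was -1.96 (adjusted p = 0.0167). The lung mean lay under the mean guide of the lung arrays, and the skin mean stood 1.05 above that guide. Since replicate 3 was above its own guide, this value is not a strict lower bound. That call was lost without subcutaneous replicate 1 or lung replicate 1 or 2 (-1.65, -1.54 and -1.67, adjusted p = 0.064, 0.0838 and 0.0707). Psmb8, which replaces Psmb5, was above the guide on 2 of the 3 dish arrays and rose by 2.94 under the skin (adjusted p = 0.000482) and by 2.15 in the lung (adjusted p = 0.00863). Its dish mean lay just under the mean guide of the dish arrays, and the skin and lung means stood 2.74 and 1.95 above that guide. Since 2 dish arrays were above their own guides, these values are not strict lower bounds. Psmb10, which replaces Psmb7, was at 8.44 ± 0.57 in the dish, 8.63 ± 0.07 under the skin and 9.74 ± 0.29 in the lung. It rose in the lung against the dish (1.31, adjusted p = 0.0184; lost in 4 settings, among them those without dish replicate 2 or 3 or lung replicate 2, adjusted p = 0.0521 to 0.0684) and against the skin (1.12, adjusted p = 0.0219; lost in 6 settings, among them those without subcutaneous replicate 1 or 3 or lung replicate 2 or 3, adjusted p = 0.0525 to 0.0763). Of 17 further genes of the interferon-gamma response 2 or 3 were above the guide on each dish and subcutaneous array, so that the counts and medians rest mostly on signals under it. Of these genes 5 rose and 1 fell under the skin against the dish (median 0.73), where 6.41% and 6.47% of all genes did, and 1 rose and 0 fell by limma in the lung against the dish (1 lower at an unadjusted p under 0.05, median 0.42), where 4.81% and 1.97% of all genes did. The light chain of MHC class I, B2m, was the riser in the lung (1.51) and rose by 3.04 under the skin. The peptide transporter subunit Tap1 and the peptide loading factor Tapbp also rose under the skin. The other calls, Gbp4 and Igtp higher and Tap2 lower, concern signals under the guide on all dish and subcutaneous arrays and give no level. In the lung against the skin 1 of the 17 genes rose and 5 fell (median -0.31), where 9.21% and 5.79% of all genes did. Tap1 (-1.79), B2m (-1.54) and Tapbp (-1.25) were among those that fell. The others, Ciita and Gbp4, lay under the guide on every array. All genes named from this list were named after their values were seen.

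Of 28 other measured genes that build, feed or regulate the proteasome, the immunoproteasome subunits included, 3 rose and 5 fell under the skin against the dish, 4 rose and 2 fell in the lung against the skin, and 3 rose and 1 fell in the lung against the dish. In either direction 29.4%, 31.5% and 14.9% of the genes above background were called in these comparisons, so the counts of 8, 6 and 4 of 28 were near or below that background. The median differences were -0.19, 0.19 and 0.02. The other 8 of 36 listed genes were not analysed here. The ubiquilins are shuttles that carry tagged proteins to the particle. Ubqln1 read 10.43, 9.79 and 9.80 in the dish, 7.73, 7.89 and 8.14 under the skin and 10.05, 10.21 and 9.71 in the lung. The subcutaneous values lay below all others, with a fall of 2.08 on the log2 scale against the dish (adjusted p = 0.000207) and a difference of 2.07 between lung and skin (adjusted p = 0.000364). Ubqln4 fell by 1.81 under the skin (adjusted p = 0.00142), and rose by 2.35 from skin to lung (adjusted p = 0.000401). Rad23b, another shuttle, read 15.15, 14.80 and 14.85 in the dish, 15.35, 15.41 and 15.43 under the skin and 13.60, 14.05 and 13.09 in the lung, where it was lowest: the difference was -1.82 from the skin (adjusted p = 0.000886) and -1.35 from the dish (adjusted p = 0.00931).

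**Figure D4:**
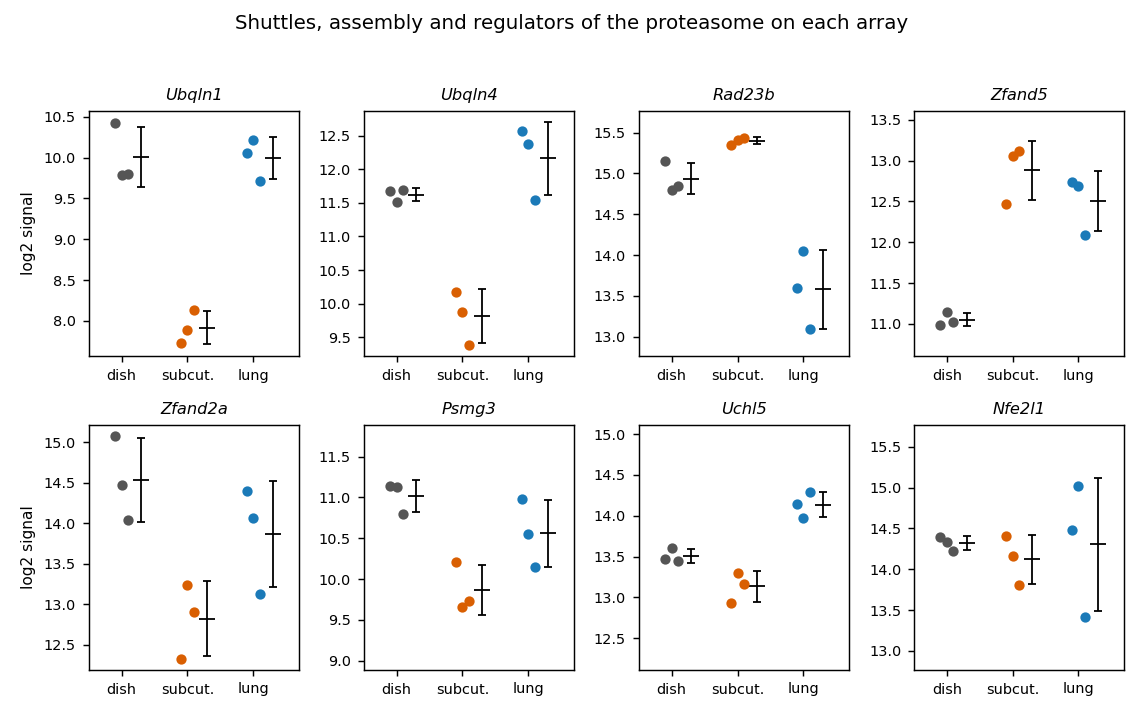
Log2 signal of 8 genes that feed, build or regulate the proteasome on each array (points) in the dish, subcutaneous and lung groups, with the mean ± SD of 3 arrays beside the points. Vertical axes differ between panels and do not start at 0. Ubqln1 and Ubqln4 are lowest under the skin, Rad23b is lowest in the lung, and Zfand5 is higher in both transplanted groups than in the dish.

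Zfand5, a zinc finger protein that stimulates the particle, rose in both transplanted groups, by 1.83 under the skin (adjusted p = 0.000593) and by 1.45 in the lung (adjusted p = 0.00649). Its stress-induced relative Zfand2a fell by 1.71 under the skin (adjusted p = 0.00774). The chaperone Psmg3, which helps to assemble the alpha ring, read 11.14, 11.12 and 10.79 in the dish and 10.21, 9.66 and 9.73 under the skin and fell by 1.15 on the log2 scale (adjusted p = 0.013), a call lost without dish replicate 2, without subcutaneous replicate 2 or with RIN as a covariate (adjusted p = 0.051 to 0.138). Psmf1, an inhibitor of the core named after its values were seen, was the fifth gene that fell under the skin (-0.98, adjusted p = 0.0266). Whether the call of Psmf1 held in the alternative settings was not examined. Uchl5, a deubiquitinase of the base, rose by 1.00 in the lung against the skin (adjusted p = 0.00952), which scaling to the median of expressed genes ended (adjusted p = 0.0615). Nfe2l1 read 14.40, 14.33 and 14.23 in the dish, 14.40, 14.16 and 13.81 under the skin and 14.48, 15.02 and 13.42 in the lung. It was not called in any comparison, and its 95% intervals reached from -0.95 to 0.55 for skin against dish and from -0.57 to 0.93 for lung against skin.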

How the data were processed

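The deposited log2 signals form 1 table of 28846 features on 9 arrays. Per the labels, biotin-labelled cDNA was hybridized to a 1-colour whole-transcript array. How the authors normalized them, with which software and build, is not given in the sources used here. Values were used as deposited. A platform annotation gave 19505 genes, with the highest mean feature for 55 genes that had several. The 42 gene numbers matched the RefSeq table of GRCm38.p6 with 0 symbols changed. The background guide is the 90th percentile of 5222 negative controls on each array. A bound ("at least") sets the brighter mean against the mean guide of a dimmer group whose arrays all lay under the guide. There was no filter on level.

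All genes were fitted with lmFit and eBayes of limma 3.58.1 (R 4.3.3; 9 arrays, 3 group means, 6 residual and 7.08 prior degrees of freedom), two-sided, with Benjamini-Hochberg adjustment, and the fit was tested on simulated data. Lists were counted in this fit and not tested. The number of arrays, 3 in each group, limits the precision. Members and lists were chosen with earlier results of these data known. Named were members called in at least 1 comparison, Psmb6, Psmb7, the activators, genes that are no subunits, and of the other pathway genes the 10 called ones with the largest differences, Psmb8, Psmb9, Psmb10 and Nfe2l1. Members without a call that are named beyond this rule were chosen after their values were seen. The 18 alternatives were quantile normalization, scaling to the median of expressed genes, a filter on dim genes, an intensity trend, array weights, RIN as a covariate, a replicate block, the mean of features, a fit of the 2 groups compared, and leaving out each array. Promoter windows and motif matches come from RefSeq sequences.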

Additional observations from a re-analysis of the deposited data

How the results depend on the processing

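Of 34 calls of proteasome genes over the 3 comparisons, 18 were kept in all 18 alternatives and 0 changed direction. Leaving out single arrays gave 10 to 16 called genes for lung against skin (16 with all arrays), 9 to 13 for skin against dish (13) and 2 to 4 for lung against dish (5). Without subcutaneous replicate 3 the first count was 10. For lung against dish the count was 3 after scaling to the median of expressed genes, 8 with the filter on dim genes, 8 with array weights and 3 with RIN as a covariate. For skin against dish it was 7 with RIN. Among the other pathway genes, lung against dish gave 7 after that scaling and 7 with array weights (4 in the fit reported, 4 to 6 in the other settings with all arrays), and 3 to 4 without single arrays. Over all genes, the counts without single arrays were 1476 to 2928 for lung against skin (2927), 514 to 1442 for lung against dish (1322) and 1639 to 2738 for skin against dish (2513). With array weights lung against dish gave 3039, with RIN as a covariate 856, and skin against dish 1280. The cause of these shifts was not tested.

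The titles give each group replicates 1 to 3, but same-numbered arrays did not deviate together (correlations -0.06 to 0.09), so the number was not used to pair samples. Such correlations cannot exclude that it marks shared handling. With the replicate block 16, 12 and 5 genes were called in the order lung against skin, skin against dish and lung against dish, over all genes 2852, 2475 and 1313. The table holds no detection calls, so low signals such as Psmb9 in the dish are bounds.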
